A study of Oryctolagus cuniculus with 12 samples.

Results

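The secreted glycoprotein osteopontin (SPP1) and the macrophage genes CD14 and CYBB were followed in the thoracic aorta of rabbits with aortic coarctation, to ask whether SPP1 moved with the macrophage genes from array to array. The genes were chosen by symbol, with their values already known. All probes whose RefSeq accession matched one of the 3 symbols were taken, and each symbol had 1 probe, printed in 1 spot per array. These were 3 of the 1264 gene symbols that could be matched to a probe, and 3 of the 43603 different probes on the array. Because the values chose the genes, their levels, differences and correlations are given as a description without a test.

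Osteopontin is an acidic phosphoprotein first described in bone, where it binds mineral and anchors cells. In arteries it is made by macrophages, by T cells and by smooth muscle cells that have left the contractile state, and it binds integrins and CD44 to promote cell adhesion and migration. CD14 is the coreceptor that hands bacterial lipopolysaccharide to Toll-like receptor 4 and is a standard surface marker of monocytes and macrophages. CYBB encodes the catalytic subunit of NADPH oxidase 2, the superoxide-producing enzyme of phagocytes. An SPP1 signal in the aortic wall can therefore come from cells that also make CD14 and CYBB, or from cells that do not.

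The study compared male New Zealand white rabbits at 32 weeks of age in 3 groups of 4. CoA rabbits carried a permanent silk suture around the aorta, tied to give a blood pressure gradient of 20 mmHg, and Corrected rabbits a degradable Vicryl suture tied to the same gradient, which dissolves and lets the vessel widen again, though not fully. Control rabbits were non-experimental animals and no sham-operated group entered the series, so that surgery and suture go with CoA and Corrected. RNA from 1 aortic ring per rabbit, taken proximal to the coarctation, was hybridized to 1 single-dye Agilent rabbit array. A ring holds the whole aortic wall, and fewer cells of a type and less RNA per cell cannot be told apart in it.

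Between 55.8% and 77.7% of spots were well above background on the 11 arrays compared. Corrected 3, with 45.6%, was left out of the comparisons; it was taken to be the array excluded in the published methods, by its animal number in the deposited data and its group. The number of arrays limits the precision of every value. All CoA arrays were scanned together and with no other group, Corrected 1 and 4 in another scan, and Controls 1, 2 and 4 in a scan with Corrected 2. Control 3 was scanned on another day. For CoA, scan and group cannot be told apart. Controls 3 and 4 gave nearly the same values. Their log2 differences had a scaled median absolute deviation of 0.144, against 0.284 to 0.963 for the other pairs of arrays. It was taken over the probes that were detected on all 12 arrays and brighter than the median of these. The smooth muscle markers MYH11 and ACTA2 were well above background on all 12 arrays, as the labelled tissue has it.

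SPP1 was higher in CoA and in Corrected aortas than in most Control aortas. On the log2 scale after quantile normalization, the SPP1 signal was 12.48, 10.83, 9.59 and 9.40 on Control arrays 1 to 4. It was 13.43, 13.47, 12.48 and 14.37 on CoA arrays 1 to 4, and 11.89, 13.06 and 12.62 on Corrected arrays 1, 2 and 4. CoA 4 was the highest of all and Controls 3 and 4 the lowest, while Control 1 lay level with CoA 3 and above Corrected 1. Control arrays had a mean of 10.58 ± 1.42 (SD, n = 4), CoA arrays 13.44 ± 0.77 (SD, n = 4) and Corrected arrays 12.52 ± 0.59 (SD, n = 3). The SPP1 probe was well above background on 12 of 12 arrays.

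The SPP1 difference for CoA vs Control was 2.86 (SE 0.65), or 7.27-fold, and 15 of the 16 pairs of a CoA and a Control array had the higher signal in CoA. For Corrected vs Control the difference was 1.95 (SE 0.70), or 3.86-fold, with the higher signal in Corrected in 11 of 12 pairs. These comparisons share their Control arrays. CoA exceeded Corrected by 0.92 (SE 0.70) in SPP1 signal, in 10 of 12 pairs, and the groups overlapped. Control animals spanned a wider SPP1 range than either operated group. Without Control 1 the CoA vs Control difference was 3.50, and without Control 4 it was 2.47. Within the scan that held Controls 1, 2 and 4 and Corrected 2, Corrected exceeded Control by 2.15. With Controls 3 and 4 averaged to 1 sample, the differences were 2.50 between CoA and Control and 1.59 between Corrected and Control.

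**Figure D1:**
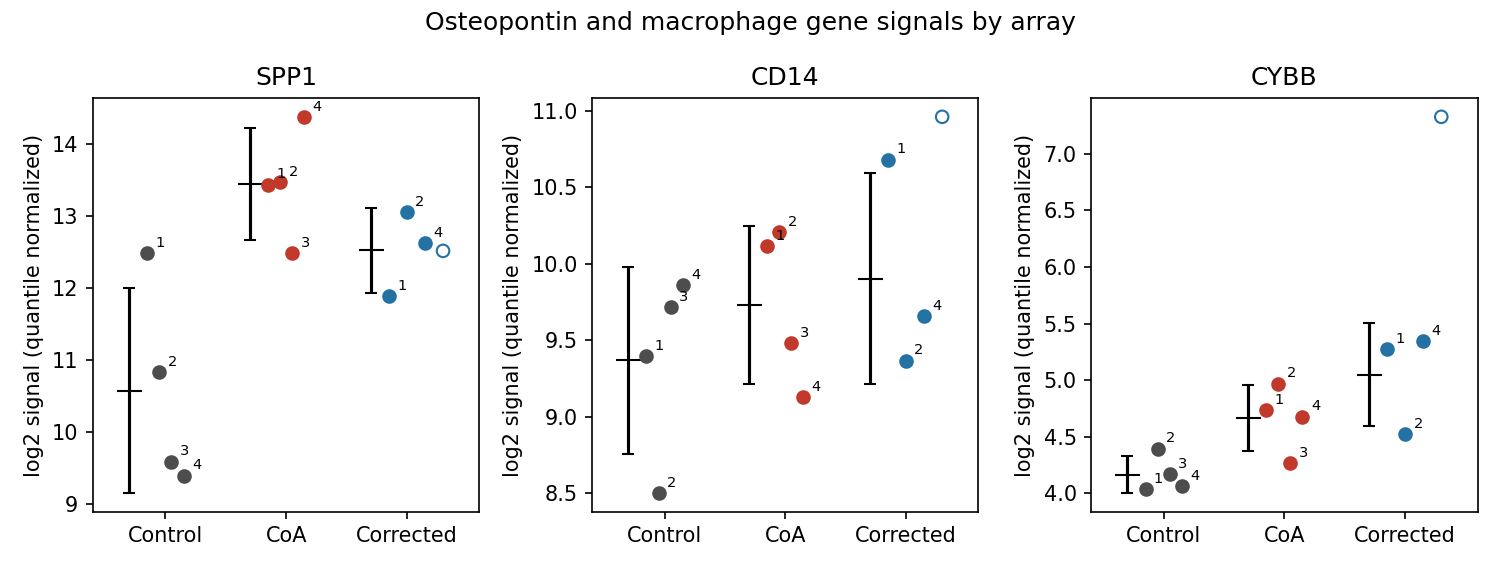
Log2 signal after quantile normalization of SPP1, CD14 and CYBB on each array (y axis) by group (x axis). Points are arrays with their replicate number, bars are the mean ± SD of the arrays compared, and the open circle is Corrected 3, which was left out. SPP1 separates Control 2 to 4 from the operated groups, the CD14 groups overlap throughout, and CYBB lies lowest in Control.

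CD14 differed little between the groups. The log2 signal of CD14 was 9.40, 8.50, 9.72 and 9.86 on Control arrays 1 to 4. It was 10.11, 10.21, 9.48 and 9.13 on CoA arrays 1 to 4, and 10.68, 9.37 and 9.66 on Corrected arrays 1, 2 and 4. Corrected 1 was the highest and Control 2 the lowest, and Controls 3 and 4, the lowest arrays for SPP1, were above CoA 3 and 4 for CD14. The Control mean was 9.37 ± 0.61 (SD, n = 4), the CoA mean 9.73 ± 0.52 (SD, n = 4) and the Corrected mean 9.90 ± 0.69 (SD, n = 3).

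Every difference in CD14 between group means was smaller than the SD within each of the groups compared. Between CoA and Control it was 0.36 (SE 0.41), between Corrected and Control 0.53 (SE 0.44), and -0.17 (SE 0.44) for CoA vs Corrected. Single arrays decided much of these values. Without Control 2 the CoA vs Control difference was 0.08, and without Corrected 1 the Corrected vs Control difference was 0.14 and the CoA vs Corrected difference 0.22. Within the scan shared by Controls 1, 2 and 4 and Corrected 2, Corrected exceeded Control by 0.11. CD14 was well above background on 12 of 12 arrays, so that the small differences were measured on a detected signal.

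CYBB was dim, with small differences between groups. Control arrays 1 to 4 had a log2 signal of 4.03, 4.39, 4.17 and 4.07. It was 4.74, 4.97, 4.27 and 4.68 on CoA arrays 1 to 4, and 5.27, 4.52 and 5.34 on Corrected arrays 1, 2 and 4. Corrected 4 and 1 were the highest, and CoA 3 was the only CoA array below the highest Control. Control averaged 4.17 ± 0.16 (SD, n = 4), CoA 4.66 ± 0.29 (SD, n = 4) and Corrected 5.05 ± 0.46 (SD, n = 3).

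The CYBB difference was 0.50 (SE 0.26), or 1.41-fold, for CoA vs Control, with CoA higher in 15 of 16 pairs. It was 0.88 (SE 0.28), or 1.84-fold, for Corrected vs Control, with Corrected higher in 12 of 12 pairs, and -0.38 (SE 0.28) for CoA vs Corrected. The median signal of the CYBB spot was 1.92 to 7.16 times its local background on the 11 arrays, and the spot was well above background on 11 of 12 arrays, the exception being CoA 3. Background correction by normexp, a model of signal and background, was run with an offset of 50 added to every spot. The offset shrinks log2 differences of dim spots by construction, and the processed CYBB signal was 15.2 to 70.4. With normexp the CYBB difference was 0.14 between CoA and Control and 0.25 between Corrected and Control. Within the shared scan, Corrected 2 exceeded Controls 1, 2 and 4 by 0.36. With Corrected 3 included, the Corrected vs Control difference was 1.45. The CYBB difference changed with the background correction and within the shared scan, and the part of background and scan in it was not tested.

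Of the 3 genes, 0 had CoA and Control arrays that did not overlap, where 6.85% of the 27287 probes tested were higher and 3.38% lower in CoA without overlap. For Corrected vs Control the count was 1, CYBB, where 5.27% of all tested probes were higher and 3.59% lower in Corrected without overlap. For CoA vs Corrected it was 0, where 2.31% were higher and 1.89% lower in CoA. The genes were chosen with these values known, and nothing is read from the counts.

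SPP1 did not follow CD14 across arrays. Over the 11 arrays, Pearson's r between SPP1 and CD14 was 0.03 and Spearman's rho -0.08, and without Controls 3 and 4, the arrays farthest from the median SPP1 signal, r was 0.23. CoA 4 had the highest SPP1 signal and, of the CoA arrays, the lowest CD14 signal, while Controls 3 and 4 had low SPP1 beside the highest CD14 of the Control group. After each group's mean was subtracted, r was -0.44 and rho -0.60, so that within groups the arrays with more CD14 tended to have less SPP1. The difference for CoA vs Control was larger by 2.50 log2 units in SPP1 than in CD14, and for Corrected vs Control by 1.41.

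SPP1 and CYBB shared the contrast between Control and the operated groups and little else. Over the 11 arrays r was 0.48 and rho 0.53, but r fell to 0.12 without Controls 3 and 4. With the group means subtracted, r was -0.028 and rho 0.01. The order of the operated groups also differed, since the SPP1 mean was highest in CoA and the CYBB mean in Corrected. The CoA vs Control difference was larger in SPP1 than in CYBB by 2.37 log2 units, and the Corrected vs Control difference by 1.07.

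CD14 and CYBB, the macrophage genes, had an r of 0.46 and a rho of 0.36 over the same arrays. Without Control 2 and Corrected 1 this r was 0.25, and with group means subtracted it was 0.27. It was 0.68 with Corrected 3 included, an array on which both genes were at their highest. All these correlations are over the same 11 arrays, which share a normalization, 2 nearly identical Control arrays and group differences. No scan held more than 4 of these arrays, too few for a correlation within a scan.

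**Figure D2:**
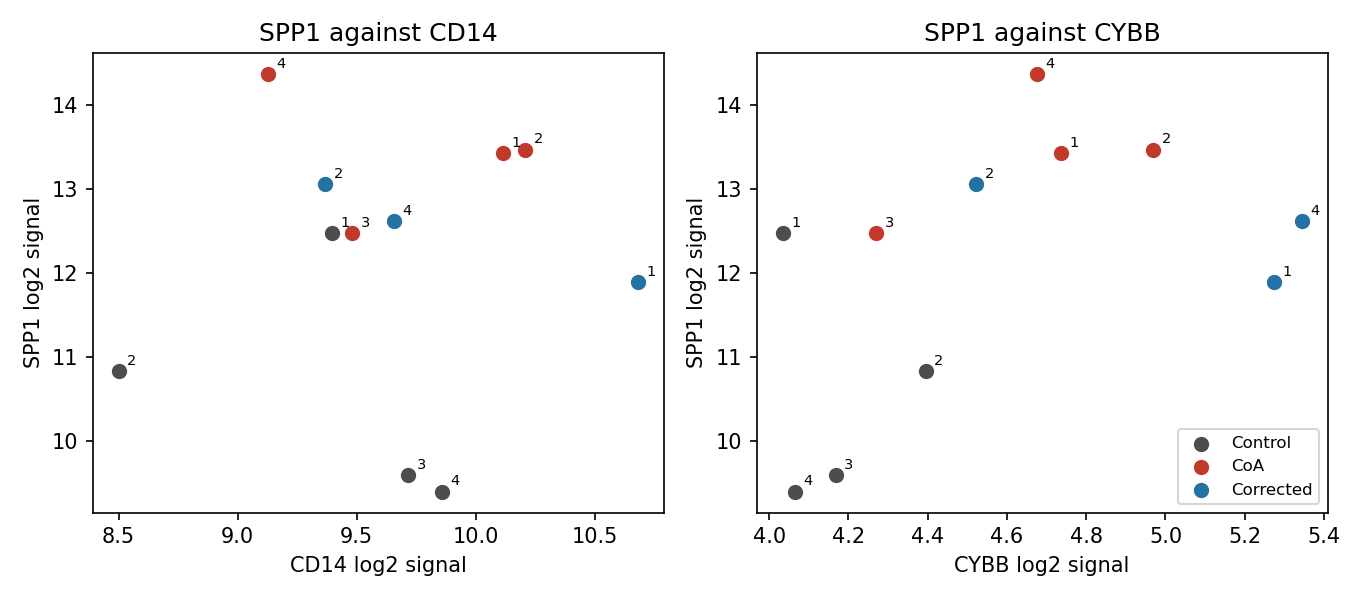
Log2 signal of SPP1 (y axis) against that of CD14 (left) and CYBB (right) on the 11 arrays compared, coloured by group and marked with the replicate number. SPP1 has no trend with CD14 (r 0.03), and its relation with CYBB (r 0.48) lies between Control and the operated groups more than within them.

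The genes most like SPP1 were sought among the 952 other gene symbols that had a detected probe. Among the 5 with the highest r over the 11 arrays were STEAP1 (0.85), a membrane protein of the metalloreductase family, KCNB2 (0.83), a voltage-gated potassium channel, HGF (0.83), hepatocyte growth factor, and IL1A (0.83), the proinflammatory cytokine interleukin 1 alpha. IL1A is also in the list of monocyte recruitment and macrophage cytokines used below. CYBB stood at rank 159 and CD14 at rank 502 of 952, and the median r over all 952 genes was 0.07. With group means subtracted, STEAP1 had rank 7, IL1A 25 and HGF 38, while KCNB2 fell to rank 132, CYBB to 500 and CD14 to 848.

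The STEAP1 signal averaged 11.74 ± 0.69 (SD, n = 4) in Control, 13.06 ± 0.37 (n = 4) in CoA and 13.37 ± 0.26 (n = 3) in Corrected. HGF averaged 5.78 ± 0.45, 7.42 ± 0.36 and 7.49 ± 0.93 in the same groups. Both genes had their lowest mean in Control, as SPP1 had. The genes most like the mean of CD14 and CYBB were ST7 (r 0.86), NAGLU (0.84), a lysosomal glycosidase, CACNG1 (0.79), a calcium channel subunit of skeletal muscle, CSF2 (0.78), the growth factor GM-CSF of macrophages and granulocytes, and the locus LOC100356678 (0.78). SPP1 was at rank 389 of 951 in that order, with an r of 0.26.

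**Figure D3:**
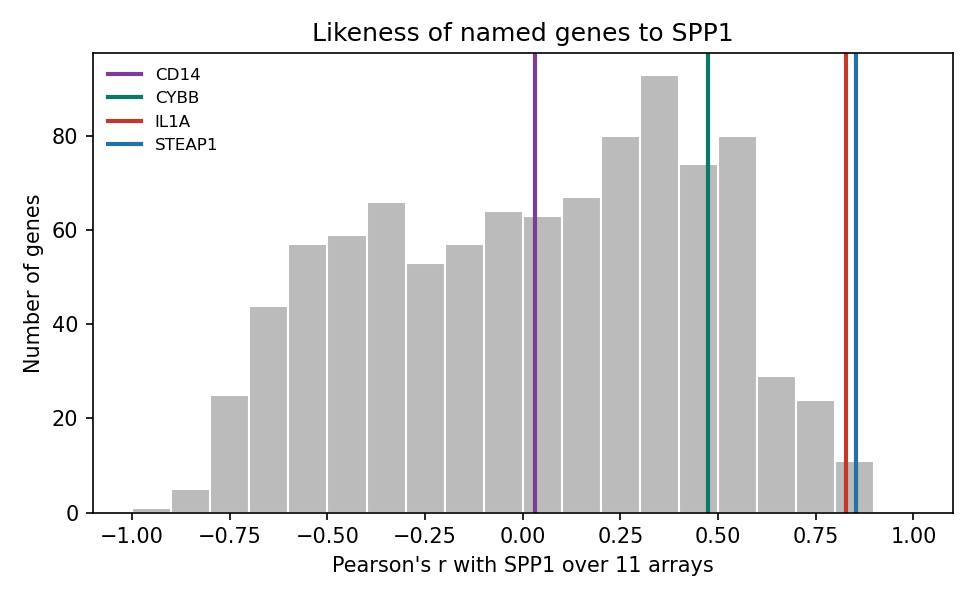
Number of genes (y axis) by Pearson's r of their signal with that of SPP1 over the 11 arrays (x axis), for 952 named genes, with CD14, CYBB, IL1A and STEAP1 as vertical lines. CD14 (r 0.03) lies in the middle of the distribution and CYBB (r 0.48) in its upper part, while STEAP1 (r 0.85) is near the upper end.

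Genes related to the 3 were taken from 6 lists. They covered osteopontin receptors, osteopontin proteases, the phagocyte oxidase, CD14 and Toll-like receptor signalling, macrophage markers, and genes of monocyte recruitment and macrophage cytokines. Of 122 listed genes, 45 had a matched probe, and the 36 whose probe was detected on 8 or more arrays were tested with limma. At a change of more than 2-fold with an unadjusted p under 0.05, 3 of the 36 (8.33%) rose in CoA vs Control, where 3.59% of all probes tested rose and 5.23% fell, and 0 fell. For Corrected vs Control 3 (8.33%) rose, against 2.42% of all probes, and 0 fell, against 2.99%. For CoA vs Corrected 0 were called, against 1.44% of all probes higher and 1.33% lower in CoA. The closer background is the 953 named genes tested, which include the listed ones and also have 1 probe each. Of these, 43 rose and 60 fell in CoA vs Control, and 34 rose and 33 fell in Corrected vs Control. For CoA vs Corrected 15 of them were higher and 16 lower in CoA.

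The listed genes had a median log2 difference of 0.21 for CoA vs Control, beside 0.06 over all probes tested, and of 0.34 for Corrected vs Control, beside 0.03. For CoA vs Corrected the median was -0.20, beside 0.02. Over the 953 named genes the medians were 0.08, 0.09 and -0.03 in the same order. At an unadjusted p under 0.05 alone, 4, 4 and 0 of the 36 passed in the 3 comparisons in this order. After Benjamini-Hochberg adjustment over all 27287 probes limma called 0 of the listed genes and 0 probes of any kind in each comparison, where 3881 (14.2%), 2284 (8.37%) and 1176 (4.31%) probes had an unadjusted p under 0.05. That 0 depended on the fit in every comparison. No probe passed in 18 of 22 alternatives for CoA vs Control, 20 of 23 for Corrected vs Control and 20 of 22 for CoA vs Corrected. For CoA vs Control, 14 of the 36 listed genes and 11058 probes passed the adjusted threshold with array weights on all 12 arrays. With scan as a random block, 870 probes but 0 listed genes passed it in that comparison. Calls of single genes below are therefore calls without correction for multiple tests.

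**Figure D4:**
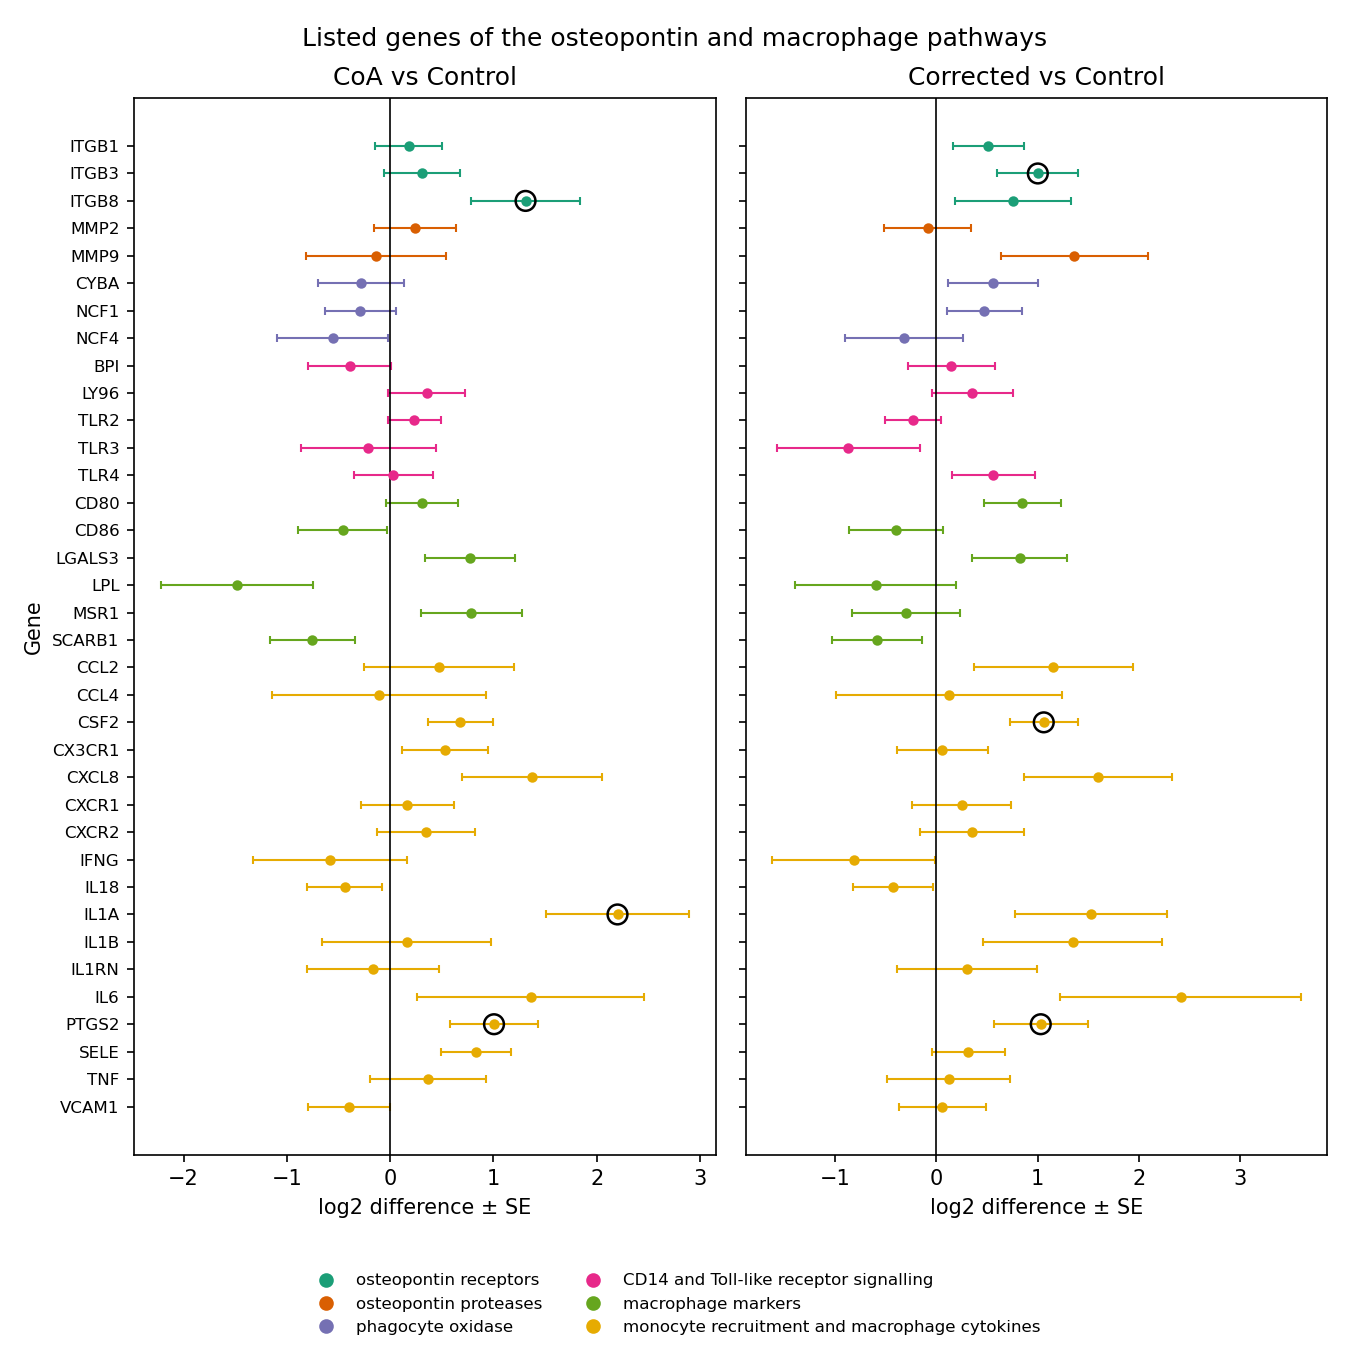
Log2 difference ± SE from limma (x axis) of the 36 listed genes tested (y axis), for CoA vs Control (left) and Corrected vs Control (right), coloured by list. Black circles mark genes changed more than 2-fold with an unadjusted p under 0.05, which are ITGB8, IL1A and PTGS2 on the left and ITGB3, CSF2 and PTGS2 on the right.

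Of the 11 genes listed for osteopontin receptors, which are integrins and CD44, 3 were tested, all integrin beta chains. CD44 and the integrin alpha chains had no matched probe and were not analysed here; most probes carry identifiers that could not be matched to a symbol. ITGB8, which pairs with the alpha v chain, rose in CoA. Whether this pair binds osteopontin was not examined here, and ITGB8 is given as a member of the list only. Its log2 signal was 7.09, 7.02, 6.45 and 6.09 on Control arrays 1 to 4 and 8.53, 8.54, 6.77 and 8.06 on CoA arrays 1 to 4, with CoA 3 again among the Controls. The difference was 1.31 (SE 0.53, limma unadjusted p = 0.031, adjusted p = 0.318), and the other 2 probes of ITGB8 gave 2.13 and 2.08. Across arrays ITGB8 had an r of 0.77 with SPP1 and of 0.59 with group means subtracted. Its call was lost without Control 3 (difference 1.24), Control 4 (1.12), CoA 1 (1.12), CoA 2 (1.12) or CoA 4 (1.28), each with a p above the threshold.

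ITGB3, the beta chain of the alpha v beta 3 receptor, was called in Corrected vs Control. The ITGB3 log2 signal was 11.77, 12.80, 12.05 and 11.49 on Control arrays 1 to 4 and 13.35, 12.36 and 13.38 on Corrected arrays 1, 2 and 4, where Control 2 exceeded Corrected 2. The difference was 1.00 (SE 0.40, limma unadjusted p = 0.029, adjusted p = 0.562), and all 5 ITGB3 probes were higher in Corrected. For CoA vs Control the ITGB3 difference was 0.31 (SE 0.37). ITGB3 had an r of 0.90 with CYBB and of 0.29 with SPP1. Within the shared scan its Corrected vs Control difference was 0.34, and without Control 1, Control 4, Corrected 1 or Corrected 4 it was 0.92, 0.82, 0.85 and 0.83, short of the criterion each time. It was 0.99 with all 12 arrays and 0.91 with the replicate number as a block, also not called. ITGB1, the partner of the alpha 4 and alpha 9 chains, differed by 0.18 (SE 0.32) and 0.51 (SE 0.35) in CoA and Corrected vs Control.

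Of 8 listed proteases that cleave osteopontin, 2 were tested and 0 were called in the fit used throughout. The gelatinase MMP9 differed by -0.14 (SE 0.68) in CoA and 1.36 (SE 0.73) in Corrected aortas, both vs Control, and MMP2 by 0.24 (SE 0.40) and -0.08 (SE 0.43). Other settings called MMP9 in Corrected vs Control, with all 12 arrays, with scan as a random block and without Corrected 2. In CoA vs Corrected MMP9 was called under the same settings and with array weights. For MMP2 only the brightest of its 6 probes was higher in CoA, and the other 5 gave -1.17 to -1.36. MMP3 and MMP12, the macrophage elastase, had a probe but were detected on too few arrays. Osteopontin also belongs to the mineral-binding proteins of bone, of which 6 of 21 listed genes were tested. ACP5, the tartrate-resistant acid phosphatase of osteoclasts and macrophages, which can dephosphorylate osteopontin, fell by 1.46 in CoA (SE 0.62, limma unadjusted p = 0.037, adjusted p = 0.331). It was the 1 gene of that list called in CoA vs Control, where 3.59% of all probes tested were called higher and 5.23% lower. In the other comparisons 0 were called. The ACP5 probe was dim, detected on 8 of 12 arrays and well above background on 2 of 4 CoA arrays.

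The partners of CYBB in the phagocyte oxidase showed no call in the fit used throughout. In CoA vs Corrected other settings called CYBA, with all 12 arrays, with array weights and without Corrected 2, and NCF1 without Corrected 2. CYBA was also called in Corrected vs Control without Corrected 2, and NCF4 in CoA vs Control with array weights. CYBA, the membrane subunit that holds CYBB in place, had a difference of -0.28 (SE 0.41) in CoA and 0.56 (SE 0.45) in Corrected aortas, both vs Control. The cytosolic organizer NCF1 had -0.29 (SE 0.34) and 0.47 (SE 0.37), and the cytosolic subunit NCF4 had -0.56 (SE 0.54) and -0.32 (SE 0.58). The small positive CoA vs Control difference of CYBB was thus not accompanied by a positive value in any of the 3 oxidase genes tested. Across arrays SPP1 had an r of -0.14 with CYBA, -0.20 with NCF1 and -0.45 with NCF4, whereas CD14 had an r of 0.59 with CYBA, -0.04 with NCF1 and 0.41 with NCF4.

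Of 22 genes around CD14 and the Toll-like receptors, 5 were tested and 0 were called in any comparison. LY96, the MD-2 protein that binds lipopolysaccharide with TLR4, differed by 0.35 (SE 0.37) in CoA and 0.36 (SE 0.40) in Corrected aortas, both vs Control. TLR4, the signalling receptor, differed by 0.03 (SE 0.38) and 0.56 (SE 0.41). CD14 went with both across arrays, with an r of 0.71 for LY96 and 0.57 for TLR4, and with group means subtracted 0.67 and 0.53. SPP1 had an r of 0.13 with LY96 and 0.00 with TLR4, and its highest r in this list was 0.46 with TLR2, the receptor for bacterial lipopeptides.

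Of 37 listed macrophage markers, 8 had a matched probe and 6 were tested. In the fit used throughout, 0 were called in any comparison. CD68, CD163, CSF1R and MRC1 had no matched probe, so that the macrophage identity of the tissue was checked on few genes. LGALS3, the lectin galectin 3 of activated macrophages and other cells, differed by 0.77 (SE 0.44, limma unadjusted p = 0.105) in CoA and 0.82 (SE 0.47, unadjusted p = 0.108) in Corrected aortas, both vs Control, with all 5 probes higher in both. The scavenger receptor MSR1 differed by 0.79 (SE 0.49) and -0.30 (SE 0.53), and the costimulatory molecules CD80 and CD86 by 0.31 (SE 0.35) and -0.46 (SE 0.43) for CoA vs Control. In Corrected vs Control CD80 differed by 0.85 (SE 0.38, limma unadjusted p = 0.046, adjusted p = 0.590), under 2-fold but called with all 12 arrays, and CD86 by -0.40 (SE 0.47). The lipoprotein genes SCARB1 and LPL, which other cell types also express, had -0.76 (SE 0.41) and -1.49 (SE 0.74) for CoA vs Control. Other settings called some of these genes. LGALS3 was called in both comparisons with Control with array weights on all 12 arrays and with 75th percentile scaling, and in CoA vs Control without CoA 2. SCARB1 and LPL were called in CoA vs Control with array weights, and LPL also with scan as a random block. MSR1 was called in CoA vs Corrected with scan as a random block.

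SPP1 was closest to LGALS3 among the macrophage markers, with an r of 0.66, and to 1 of the 6 it had an r above 0.5. Its r was 0.33 with MSR1, 0.18 with CD80, -0.32 with CD86, -0.34 with LPL and -0.82 with SCARB1. CD14 had its highest r in this list with MSR1 (0.50) and CYBB with CD80 (0.79). The summed signal of the 8 macrophage markers with a probe, of which LGALS3 made up 65.9% to 96.9%, was 14.55 to 15.31 on the log2 scale in Control, 14.63 to 16.08 in CoA and 14.84 to 15.91 in Corrected, and the groups overlapped. Its r with SPP1 was 0.60. The part of macrophage number in the SPP1 difference was not tested.

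Some markers of other cell types differed between the groups too. The summed log2 signal of 5 adipocyte markers was 12.60 to 13.36 in Control and 9.63 to 13.03 in CoA, with 2 of 4 tested markers called lower and an r of -0.70 with SPP1. That of 2 erythroid markers was 18.28 to 18.86 in Control and 15.00 to 17.91 in CoA, with both called lower and an r of -0.60 with SPP1. The 6 smooth muscle markers had 16.59 to 17.69 in Control and 16.70 to 17.83 in CoA, with 0 called in CoA vs Control and an r of 0.57. The 7 T cell markers with a probe summed to 9.02 to 9.25 in Control, 7.55 to 9.15 in CoA and 7.46 to 8.24 in Corrected. Their sum had an r of -0.46 with SPP1 and did not overlap between Control and Corrected. Of all single probes tested, 3.59% were lower in Corrected than in Control without overlap. In CoA vs Control 1 of 3 T cell markers tested was called lower, and 0 of 4 neutrophil, 0 of 3 endothelial and 0 of 4 fibroblast and matrix markers were called, while B cell and dividing cell markers had no matched probe and were not analysed here. In Corrected vs Control 1 smooth muscle marker was called higher and 1 T cell and 1 adipocyte marker lower, and in CoA vs Corrected 1 neutrophil and 1 erythroid marker lower. Of all probes tested, 3.59% were called higher and 5.23% lower in CoA vs Control, and 2.42% and 2.99% in Corrected vs Control. In CoA vs Corrected 1.44% were called higher and 1.33% lower. With so few markers tested per list, nothing is read from these counts. The part of these cell types in the SPP1 difference was not tested.

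Of the 32 cytokines, chemokines and adhesion molecules, 17 were tested. IL1A rose in CoA and was the listed gene closest to SPP1. Its log2 signal was 5.05, 5.97, 4.61 and 3.89 on Control arrays 1 to 4, 7.83, 5.90, 5.79 and 8.80 on CoA arrays 1 to 4, and 5.55, 6.81 and 6.84 on Corrected arrays 1, 2 and 4. CoA 4 was the highest and Control 4 the lowest, as for SPP1, while Control 2 exceeded CoA 2 and 3. The difference for CoA vs Control was 2.20 (SE 0.70, limma unadjusted p = 0.009, adjusted p = 0.269), and the other 3 probes of IL1A gave 2.00, 1.25 and 0.42. For Corrected vs Control it was 1.53 (SE 0.75, unadjusted p = 0.068). IL1A had an r of 0.83 with SPP1, 0.47 with CYBB and -0.19 with CD14, and with group means subtracted these were 0.61, 0.10 and -0.66. The CoA vs Control call of IL1A was kept under all 22 alternatives run, with differences of 1.11 to 3.54.

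PTGS2, the inducible cyclooxygenase, was called in both comparisons with Control, which share the Control arrays. The PTGS2 log2 signal was 10.86, 12.71, 11.52 and 11.46 on Control arrays 1 to 4, 13.22, 12.64, 12.57 and 12.14 on CoA arrays 1 to 4, and 11.90, 13.04 and 13.06 on Corrected arrays 1, 2 and 4. Control 2 lay within the range of both operated groups. The differences were 1.01 (SE 0.43, limma unadjusted p = 0.039, adjusted p = 0.335) and 1.03 (SE 0.46, unadjusted p = 0.048, adjusted p = 0.596). They were 0.74 and 0.77 without Control 1, and 0.96 and 0.98 with Controls 3 and 4 as 1 sample, no longer called. With the replicate number as a block (1.01 and 1.00, limma unadjusted p = 0.050 and 0.075) and with scan as a random block (0.95 and 0.96) both calls were lost, as was the Corrected vs Control call within the shared scan (1.36, unadjusted p = 0.153). The CoA vs Control call was also lost without Control 3, Control 4, CoA 1, CoA 2 or CoA 3, at differences of 0.81 to 1.03. The Corrected vs Control call was lost without Control 3, Control 4, CoA 2, CoA 3, CoA 4, Corrected 2 or Corrected 4, at 0.83 to 1.03.

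CSF2 was called in Corrected vs Control. Its log2 signal was 5.10, 5.85, 5.81 and 5.44 on Control arrays 1 to 4, 6.19, 6.77, 5.98 and 5.98 on CoA arrays 1 to 4, and 6.74, 6.01 and 7.09 on Corrected arrays 1, 2 and 4. Every CoA and Corrected array compared was above every Control array, but Corrected 3, left out of the comparisons and not well above background, had 4.96, below all Controls. The Corrected vs Control difference was 1.06 (SE 0.34, limma unadjusted p = 0.009, adjusted p = 0.458), and 4 of the 5 CSF2 probes were higher in Corrected. It was 0.54 within the shared scan, and 0.91 without Control 1, 1.00 without Corrected 1 and 0.82 without Corrected 4, under the fold minimum. With all 12 arrays it was 0.65, and 0.94 with array weights, neither called. For CoA vs Control it was 0.68 (SE 0.31, unadjusted p = 0.053). CSF2 had an r of 0.95 with CYBB, 0.46 with CD14 and 0.37 with SPP1.

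The monocyte chemokine CCL2 differed by 0.47 (SE 0.73) in CoA and 1.16 (SE 0.79) in Corrected aortas, both vs Control, and had the highest r with CD14 of the 36 listed genes, 0.82, beside 0.02 with SPP1. CXCL8, the neutrophil chemokine interleukin 8, differed by 1.37 (SE 0.68, limma unadjusted p = 0.067) and 1.60 (SE 0.73, unadjusted p = 0.051), with an r of 0.57 with SPP1 and 0.79 with CYBB. IL1B differed by 0.16 (SE 0.82) and 1.35 (SE 0.88), and had an r of 0.71 with CYBB and 0.01 with SPP1. TNF differed by 0.37 (SE 0.56) and 0.12 (SE 0.61), with 2 of its 5 probes in that direction in both comparisons. The endothelial selectin SELE differed by 0.83 (SE 0.34, unadjusted p = 0.031, adjusted p = 0.318) for CoA vs Control, under 2-fold, and 2 of its 5 probes had that direction. Of the 17 cytokine genes, 4 had an r above 0.5 with SPP1, 6 with CYBB and 1 with CD14.

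**Figure D5:**
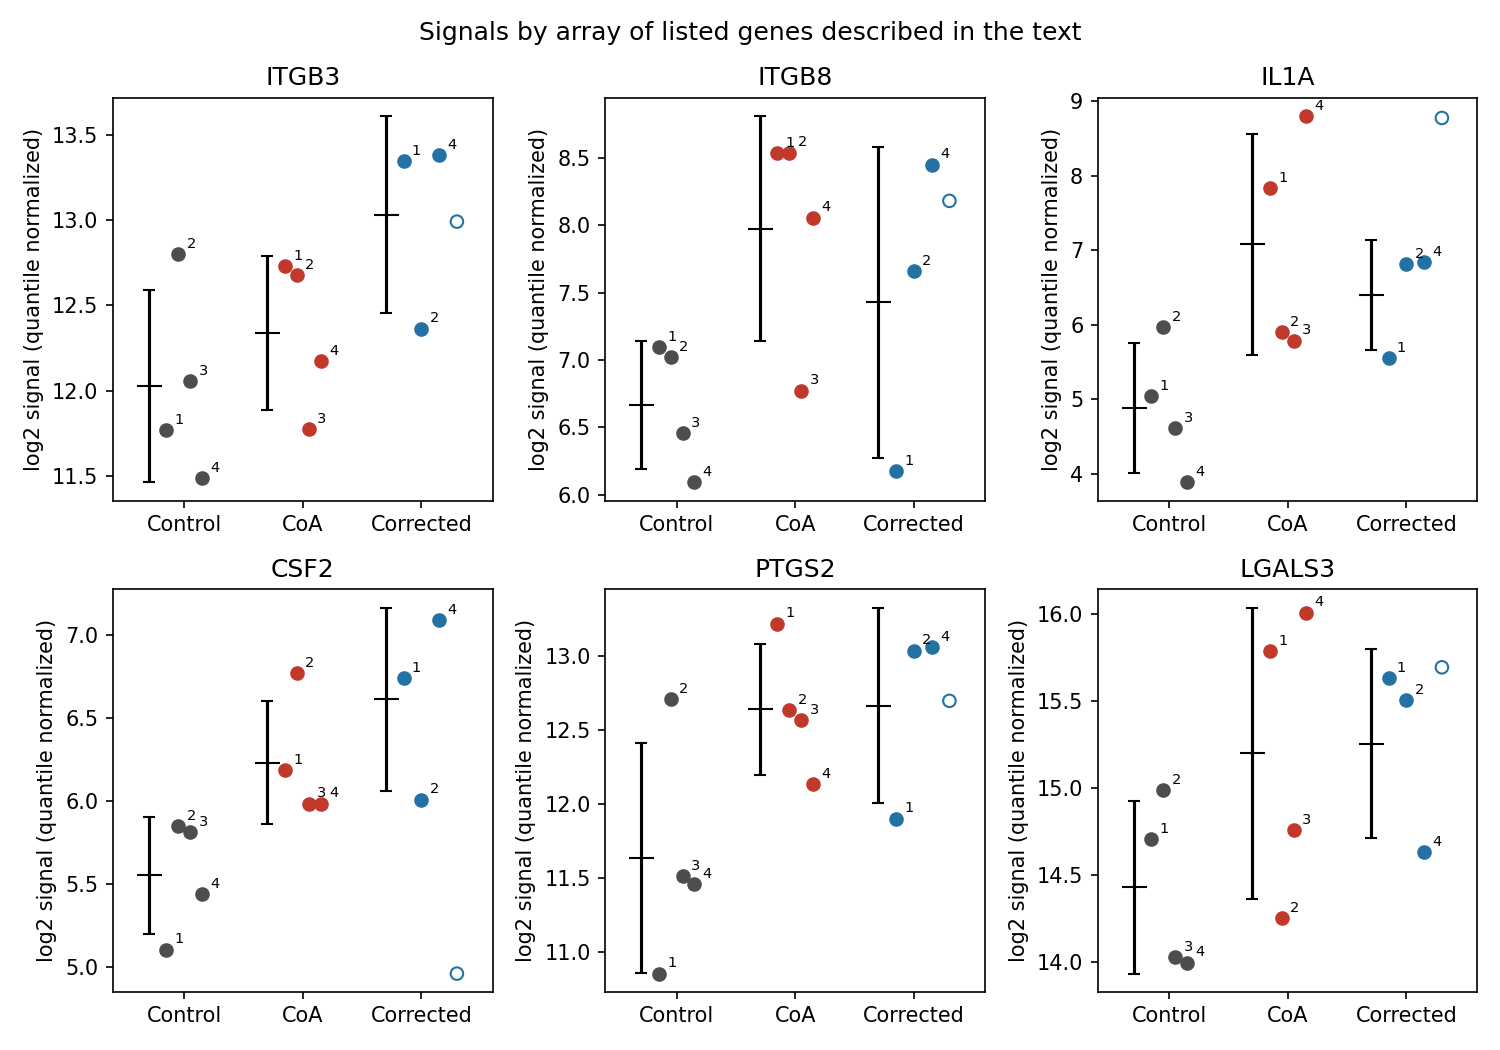
Log2 signal after quantile normalization on each array (y axis) by group (x axis) of the called listed genes ITGB3, ITGB8, IL1A, CSF2 and PTGS2, and of the macrophage marker LGALS3. Points are arrays with their replicate number, bars are mean ± SD, and the open circle is Corrected 3, left out of the comparisons; IL1A is highest on CoA 4, as SPP1 is, and CSF2 of all operated arrays compared lies above Control.

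Across the 36 listed genes the highest r with SPP1 were those of IL1A and ITGB8, and the lowest that of SCARB1, while those of CD14 were highest with CCL2 and LY96 and those of CYBB with CSF2 and ITGB3. The 3 genes thus had different nearest neighbours on the same arrays. These correlations rest on 11 arrays and on genes listed with earlier results known, and are given as a description.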

How the data were processed

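RNA of 12 aortic rings, 1 per rabbit, had been measured on 12 Agilent rabbit arrays with 1 dye. The authors deposited Agilent Feature Extraction output (version 11.0.1.1 per the labels and file headers). The processed signal in it is the spot intensity after the software's background subtraction, before any scaling between arrays. Median spot and background intensities were deposited uncorrected, with flags for outliers, saturation and signal above background.

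Log2 processed signals of the 43803 spots that are not controls were quantile normalized across 12 arrays, leaving out flagged outlier spots (8 to 22 per array) and averaging repeated spots. The tests covered the 27287 probes that were detected, with flags for a significant signal well above background, on 8 or more of 12 arrays. Symbols came from the RefSeq gene table of rabbit by accession and matched 3368 probes, and the brightest probe stood for a gene. The other probes were not named here. Groups were fitted over 11 arrays in limma 3.58.1 (R 4.3.3, statmod 1.5.0), with two-sided p-values. A call was a change over 2-fold with an unadjusted p under 0.05. This was the lowest of the study's fold-change bins, and the genes it studied further met a higher one. Python 3.11.15, numpy 2.4.6, pandas 2.3.3 and matplotlib 3.10.9 were used otherwise. The limma step was tested on simulated data with 200 changed probes.

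The 3 genes, the lists and the tests were chosen with earlier results of these data known. Genes named were the 3, members of the 6 pathway lists, called genes of other lists and the 5 genes most like SPP1 or the mean of CD14 and CYBB, of which 1 is not reported here. Each array came from another rabbit per the study's methods. Alternatives changed the arrays, array weights, normalization, background correction, blocks, detection filter, test or samples in the fit. No sequence of the probes, transcripts or proteins was used here.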

Additional observations from a re-analysis of the deposited data

Results flagged for a closer look

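Corrected 3, the array that entered no comparison, gave a signal above every Control array for each of the 3 genes. Its log2 signal was 12.51 for SPP1, where the highest Control array had 12.48. It was 10.96 for CD14, above 9.86, and 7.33 for CYBB, above 4.39, and both were the highest values of all 12 arrays for their genes. On this array 45.6% of spots were well above background, the lowest share of the series, and its median processed signal before normalization was 8.85, against 20.4 to 64.0 on the other arrays. The part of array quality in these values was not tested. SPP1 of this array lay within the range of the other Corrected arrays, 11.89 to 13.06, while CD14 and CYBB lay above it.

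An outlier test over the 3 genes and the 5 listed genes called flagged no sample in 16 groups of 4 arrays. The Corrected group, with 3 arrays compared, was not among them. In 4 arrays such a test can flag only a sample far from all others, and it flags about 1 in 20 groups by chance. Nothing is read from its result for the 3 genes, whose values were known. Single arrays did shift the differences, as given above for CD14.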

How the results depend on the processing

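The direction of the SPP1 difference was kept under all alternatives run, 19 for CoA vs Control (2.47 to 4.00), 20 for Corrected vs Control (1.55 to 2.75) and 19 for CoA vs Corrected (0.60 to 1.25). Scaling to the 75th percentile, which moved the median difference of all probes for CoA vs Control from 0.06 to 0.22, gave 3.14 for SPP1. For CD14 the sign held in 18 of 19, 20 of 20 and 17 of 19. CYBB was 0.14 (CoA vs Control) and 0.25 (Corrected vs Control) with normexp, whose offset of 50 shrinks differences of dim spots. It was 1.45 and -0.95 (Corrected vs Control, CoA vs Corrected) with all 12 arrays. With scan as a fixed block, which could be fitted for Corrected vs Control only, it was 0.36. With group means subtracted, r was -0.44 for SPP1 and CD14 and turned to -0.028 for SPP1 and CYBB. The cause was not tested.

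Of the listed genes, 3 were called in CoA vs Control, 8 with array weights on all 12 arrays (5 higher, 3 lower), and 1 each with normexp, Controls 3 and 4 as 1 sample, or a test without moderation. In Corrected vs Control 3 were called, 6 with all 12 arrays or the 75th percentile, 5 with array weights, scan as a random block or no detection filter, 1 with Controls 3 and 4 as 1 sample, and 0 with normexp or scan as a fixed block. In CoA vs Corrected 0 were called, 2 with all 12 arrays, array weights or scan as a random block, and 1 with no detection filter.

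Of all probes, 2405 were called in CoA vs Control, 5212 with array weights, 935 with normexp, 1564 with Controls 3 and 4 as 1 sample, 3733 with no detection filter and 1279 when detected on all 12 arrays. The split of 979 higher and 1426 lower became 1530 and 1222 with 75th percentile scaling. In Corrected vs Control 1475 were called, 2854 with all 12 arrays, 2663 with array weights, 558 with normexp, 2430 with no filter, 787 when detected on all 12 arrays and 653 with scan as a fixed block. In CoA vs Corrected 754 were called, 1162 with all 12 arrays, 1142 with array weights, 117 with normexp, 1207 with scan as a random block, 1463 with no filter, 317 when detected on all 12 arrays and 466 without moderation.

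Leaving out 1 array at a time gave, in the order of comparisons used above, SPP1 differences of 2.47 to 3.50, 1.55 to 2.58 and 0.60 to 1.24. CD14 had 0.08 to 0.57, 0.14 to 0.80 and -0.44 to 0.22, and CYBB 0.40 to 0.63, 0.73 to 1.14 and -0.65 to -0.24. The r was -0.20 to 0.20 for SPP1 and CD14, 0.34 to 0.58 for SPP1 and CYBB and 0.25 to 0.55 for CD14 and CYBB. Listed genes called numbered 1 (without Control 3 or 4) to 4, 0 (without Control 1) to 9 (without Corrected 2) and 0 to 6 (without Corrected 2). Probes called numbered 1545 (without Control 4) to 3537 (without Control 2), 766 (without Corrected 4) to 2401 (without Corrected 1) and 641 to 1779 (without Corrected 2).

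Replicate numbers did not pair the arrays. The 10 same-number pairs had correlations of their deviations from group means of -0.44 to 0.45, 2 of them above 0.1, and 4 of 11 arrays were closest to an array of their own number. With the replicate number as a block, the SPP1 differences were 2.86, 1.62 and 1.24, those of CD14 0.36, 0.55 and -0.18 and those of CYBB 0.50, 0.82 and -0.32, in the same order. The block gave 2, 3 and 0 listed genes (PTGS2 was lost in CoA vs Control, and CSF2 alone was shared with the 3 called in Corrected vs Control, where ITGB3 and PTGS2 were lost) and 2533, 1107 and 1158 probes called. Averaging the probes of a gene could not change a value, since each of the 3 genes has 1 probe. The number of arrays, and for CYBB a signal near background, limit these results.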
